A study of Mus musculus with 6 samples.

Results

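The NMDA receptor subunit genes Grin1, Grin2a, Grin2b, Grin2c, Grin2d and Grin3a were followed in hippocampal RNA-seq of 3 WT mice and 3 TG mice. The 6 genes were picked by their symbols from the 54532 genes of the deposited table, and all 6 were among the 20952 genes that passed a minimum mean FPKM of 0.1. FPKM is the read count of a gene per kilobase of its exons, scaled to the reads of the library, so that genes of different length can be set side by side within a library. No difference between WT and TG mice was detected for any of the 6 subunit mRNAs. The fitted changes lay between 0.00 and 0.14 on the log2 scale, the groups overlapped for every gene, and the smallest p was 0.332. Across the 6 genes the 95% limits of the fold change ran from 0.807 (Grin2d) to 1.5 (Grin2b). The narrowest interval was 0.882 to 1.17 for Grin1 and the widest 0.811 to 1.5 for Grin2b. For each gene, its own interval is what these libraries leave undetermined.

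In the TG mice, G82R and L85P had been introduced into exon 3 of Slc1a2, the gene of the astrocytic glutamate transporter GLT-1, by CRISPR/Cas9 on the C57BL/6N background, and the WT mice were littermates without them. Being a knock-in at the locus itself, the change is driven by no transgene promoter and limited to no cell type. Age, sex and the zygosity of the sequenced mice are not given by the labels, which number the mice from 1 to 3 in each group. A library carries the group and number of its mouse (WT1, TG1), and values of a group are listed in the order of these numbers.

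NMDA receptors are glutamate-gated cation channels that open only when glutamate and a co-agonist, glycine or D-serine, are bound and the membrane is depolarised, and their calcium influx drives synaptic plasticity in the hippocampus. GluN1, from Grin1, is the obligatory subunit that binds the co-agonist, and the GluN2 subunits, from Grin2a to Grin2d, bind glutamate and set the open time, the magnesium block and the intracellular partners of the channel. GluN3A, from Grin3a, binds glycine in place of glutamate, lowers calcium permeability and is best known from the developing brain. Glutamate that escapes uptake by GLT-1 reaches receptors outside the synapse, where GluN2B is abundant, which makes the subunits of interest in mice with a changed GLT-1.

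The sequences shown are the ends of the reading frames, where the Grin2 genes meet the scaffolds described further on. The last 15 bases are given from 5′ to 3′, read from the GENCODE release M21 transcripts of GRCm38, with the last 4 codons of the Grin2 genes in capitals and the stop codon in lower case. These codons encode the carboxyl-terminal peptide by which GluN2 subunits dock on the PDZ domains of Dlg scaffolds at the postsynaptic density. The ends of Grin1 and Grin3a are in lower case throughout, which says nothing of whether they bind such domains.
Grin2a: GAATCTGATGTCtaa
Grin2b: GAGTCTGATGTCtga
Grin2c: GAATCAGAAGTGtga
Grin2d: GAGTCCGAGGTAtga
Grin1, first end: agcaccgtggtgtga
Grin1, second end: catagggagagctga
Grin3a: acttgtgaatcctag
Grin1 ended in 2 ways, each in 4 of its 8 full protein-coding transcripts, and GluN1 is known for its alternative carboxyl termini. A gene-level FPKM adds all transcripts of a gene, so the Grin1 forms were not told apart in these data. The reading frames held 1464 codons in Grin2a, 1482 in Grin2b, 1239 in Grin2c, 1323 in Grin2d, 885 to 959 in Grin1 and 1115 to 1135 in Grin3a. Over whole transcripts no run of 50 bases was shared between any pair of the 6 genes. The longest identical run was 34 bases, between Grin2b and Grin2c, and the shortest of the longest runs was 13 bases, between Grin2d and Grin3a.

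All 6 genes lie on the minus strand of separate chromosomes in GRCm38. Grin1 (ENSMUSG00000026959) spans chromosome 2 from 25291181 to 25319187, Grin2a (ENSMUSG00000059003) chromosome 16 from 9567898 to 9995560, and Grin2b (ENSMUSG00000030209) chromosome 6 from 135713233 to 136173511. Grin2c (ENSMUSG00000020734) spans chromosome 11 from 115249169 to 115267243, Grin2d (ENSMUSG00000002771) chromosome 7 from 45831883 to 45878378, and Grin3a (ENSMUSG00000039579) chromosome 4 from 49661611 to 49845744. The exons, over which FPKM was computed, differ widely in what they hold. Of the 24842 exon bases of Grin2b 17.9% are coding, of the 17933 of Grin2a 24.5%, of the 12275 of Grin3a 27.7% and of the 9700 of Grin1 30.3%, whereas 59.6% of the 6658 exon bases of Grin2d and 73.8% of the 5037 of Grin2c are coding. Non-coding exon sequence thus weighs most in Grin2b and least in Grin2c.

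Reads on genes came to between 16081281 and 18751057 per library, and 3 reads on 1 kb of exon gave an FPKM of 0.160 to 0.190. The 5 markers of neurons, led by Snap25 of the synaptic release machinery, summed to an FPKM of 630 to 709 in all 6 libraries. Against the mean of the WT libraries, their median log2 deviation was 0.18 in TG1, -0.07 in TG2 and -0.06 in WT3. For the 6 subunit genes it was 0.22, -0.05 and -0.06. WT2 did not show this likeness, with -0.00 for the neuron markers beside 0.11 for the subunit genes. TG3 had opposite signs, 0.02 beside -0.02, while WT1 had 0.03 beside 0.04. The 4 genes listed as cerebellum markers were Gabra6, Cbln3, Pcp2 and Calb2. Of these, Gabra6 of the granule cells was at or below 0.261, while the 4 together summed to 12.8 to 25.2. The 3 tested had fitted changes below 0 (median -0.26, smallest limma p 0.0533), with a median deviation of -0.70 in TG1. The 10 choroid plexus markers, from the epithelium that makes cerebrospinal fluid, summed to 81.8, 57.6 and 72.8 in the WT libraries but to 1210.5, 3830.4 and 65.4 in the TG libraries, so that TG1 and TG2 stand apart. The mean log2 level of these 10 genes relative to the WT mean, used as a score, reached 2.95 for TG1 and 4.54 for TG2, against -0.05 for TG3. The 6 oligodendrocyte markers had a median log2 fold change of -0.32, lowest in TG1 with a median deviation from the WT mean of -0.66. All 5 neocortex markers (median 0.15) and all 5 thalamus markers (median 0.16) had fitted changes above 0, as had 4 of 5 CA1 markers (median 0.20). At an unadjusted p under 0.05 in limma, 5 choroid plexus, 2 neocortex, 0 thalamus and 1 CA1 marker were higher, against 3.13% of all genes tested. The medians were -0.13 for dentate granule markers and -0.08 for CA2 and CA3 markers. At the same p, 1 of 6 oligodendrocyte, 1 of 6 dentate granule and 1 of 6 CA2 and CA3 markers were lower, against 2.78% of all genes. The part of these markers in the subunit values was not tested. The Y-linked Ddx3y was between 10.6 and 12.3 in all libraries and Xist had at most 6 reads in a library, the pattern of male mice. Slc1a2 itself was at 202, 199.5 and 177 in the WT libraries against 222, 207 and 217 in the TG libraries. Its groups were apart, TG higher, as for 6.35% of all genes (log2 fold change 0.16, limma adjusted p = 0.789). The study reported GLT-1 protein as nearly lost in the hippocampus of TG mice, and these mRNA values do not measure protein. In bulk tissue, fewer cells of a type and less RNA per cell cannot be told apart, and the p-values measure the spread between these 6 libraries only.

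The levels of the subunit mRNAs kept 1 order in every library. Averaged over the 6 libraries, Grin1 was highest with an FPKM of 41.2 ± 2.95 (SD), followed by Grin2b with 28.9 ± 5.27, Grin2a with 15.99 ± 1.93, Grin2c with 11.9 ± 0.95, Grin3a with 3.65 ± 0.293 and Grin2d with 3.00 ± 0.366. Each gene was above the next in 6 of 6 libraries. Across libraries the ranges of Grin2a and Grin2c overlapped by 0.14 FPKM and those of Grin3a and Grin2d by 0.28 FPKM, so these neighbours were separated within each library but not beyond the spread between libraries. Grin3b, the remaining gene of the family, which is known from motor neurons, was not among the chosen genes and was close to absent, at 0, 0.0751 and 0.0324 in the WT libraries against 0.134, 0.169 and 0.0840 in the TG libraries, with at most 10 reads in a library.

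**Figure D1:**
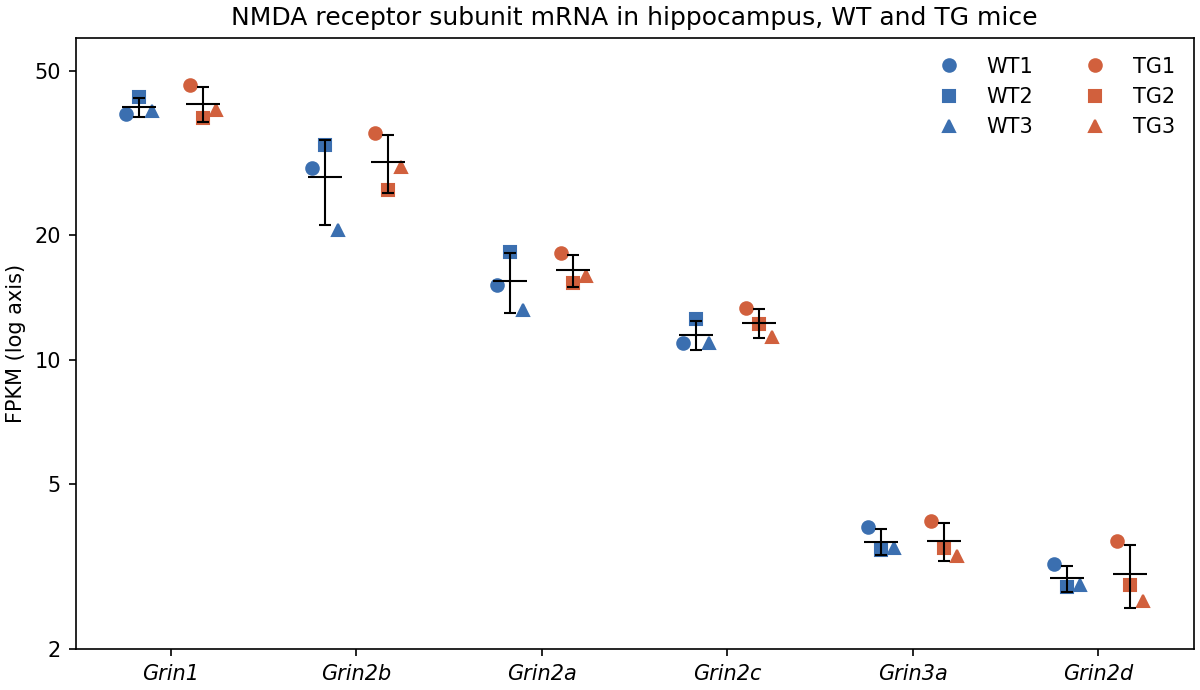
FPKM of the 6 NMDA receptor subunit genes (log axis) in each of the 3 WT and 3 TG libraries, with horizontal bars for the group means and error bars for the SD (n = 3). The order from Grin1 (mean 41.2) to Grin2d (mean 3.00) holds in every library, and the WT and TG points overlap for all 6 genes.

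In the obligatory subunit gene Grin1 the FPKM values were 39.2, 43.2 and 40.0 in the WT libraries against 46.2, 38.4 and 40.1 in the TG libraries. The highest and the lowest values were both TG mice, TG1 and TG2, and the WT values lay between them. Group means were 40.8 ± 2.14 for WT and 41.6 ± 4.08 for TG (SD, n = 3). With limma the log2 fold change of TG against WT was 0.02 (SE 0.0876, 95% interval -0.18 to 0.23, adjusted p = 0.952), the narrowest interval among the 6 genes. Between 6679 and 7258 reads stood behind each value, for a counting error of 1.17% to 1.22%, whereas the libraries of a group varied by 5.25% (WT) and 9.82% (TG) as SD over mean. Of the exon bases of Grin1, 1307 overlap Grin1os on the opposite strand, an antisense RNA with only 74 to 135 reads in a library.

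Grin2b encodes GluN2B, the glutamate-binding subunit that prevails in young neurons, keeps the channel open long and binds CaMKII. Its FPKM was 29.1, 33.1 and 20.6 in the WT libraries against 35.4, 25.8 and 29.2 in the TG libraries. WT3 was lowest and TG1 highest, and the other 4 libraries of both groups were mixed between them. The means were 27.6 ± 6.39 (WT) and 30.1 ± 4.89 (TG), with n = 3,, and the log2 fold change of 0.14 (SE 0.189, 95% interval -0.30 to 0.59, limma adjusted p = 0.857) was the largest estimate with the widest interval of the 6 genes. WT3 alone decided its sign: without WT3 the estimate was -0.06, and without TG1 it was 0.02. Grin2b was read deepest, at 9564 to 13920 reads or a counting error of at most 1.02%, so counting contributed little to its spread of 23.2% among WT mice.

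Grin2a encodes GluN2A, which gives faster currents and gains on GluN2B as synapses mature. Its FPKM was 15.2, 18.3 and 13.2 in the WT libraries against 18.1, 15.3 and 15.9 in the TG libraries. Again WT3 was lowest, but WT2 rather than TG1 was highest, and the 3 TG values fell within the range of the WT values. The means of 15.5 ± 2.56 and 16.4 ± 1.47 (SD, n = 3) gave a log2 fold change of 0.09 (SE 0.128, 95% interval -0.21 to 0.39, limma adjusted p = 0.864), which was -0.02 without WT3. Its transcripts share 11.6% of their 50-base stretches with the processed pseudogene Gm7328, whose FPKM was at most 0.299.

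Grin2c encodes GluN2C, with a weak magnesium block, best known from cerebellar granule cells and also made by astrocytes. Its FPKM was 11.0, 12.5 and 11.0 in the WT libraries against 13.3, 12.2 and 11.3 in the TG libraries. Every TG value was above 2 of the 3 WT values, but WT2 exceeded TG2 and TG3, so the groups overlapped. This gene had the smallest p of the 6, with a log2 fold change of 0.09 (SE 0.0911, 95% interval -0.12 to 0.31, limma adjusted p = 0.80) and 1019 to 1100 reads in a library. The 6 astrocyte markers had a median log2 fold change of 0.02, and the 3 tested cerebellum markers one of -0.26. Gabra6, 1 of the 4 cerebellum markers, was at 0 in 3 of 6 libraries, at 0.261 in WT1 and at 0.0224 or less in the others.

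Grin2d encodes GluN2D, the slowest-closing GluN2 subunit, which in the hippocampus is found mainly in interneurons. It had the lowest level of the 6, at 3.21, 2.83 and 2.86 in the WT libraries against 3.64, 2.87 and 2.62 in the TG libraries. The WT values lay inside the TG range, whose upper end was again TG1. The log2 fold change was 0.02 (SE 0.142, 95% interval -0.31 to 0.36, limma adjusted p = 0.973) with all libraries and -0.11 without TG1. Only 304 to 395 reads stood behind each value, a counting error of 5.03% to 5.74%, beside a spread of 7.10% among WT mice and 17.6% among TG mice. The 8 interneuron markers had a median log2 fold change of -0.00, and 643 exon bases of Grin2d overlap the antisense gene Gm45441, with 30 to 56 reads.

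Grin3a, the glycine-binding modulator, was measured at 3.94, 3.46 and 3.51 in the WT libraries against 4.09, 3.51 and 3.37 in the TG libraries. One mouse of each group, WT1 and TG1, was high and the others lay within 0.15 FPKM of one another. The group means were closest of all 6 genes, 3.64 ± 0.262 for WT and 3.66 ± 0.382 for TG (SD, n = 3), with a log2 fold change of 0.00 (SE 0.112, 95% interval -0.26 to 0.27, limma adjusted p = 0.995). No exon base of Grin3a is shared with another annotated gene.

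Counted over the family, 0 of 6 genes passed an unadjusted p of 0.05 in limma, against 5.91% of the 20952 genes tested, and 0 of 6 passed the adjusted threshold, against 0.00955% of all genes. The 2 groups were apart, with all 3 mice of one above all 3 of the other, for 0 of 6 genes, where 12.1% of all genes were apart. With 6 genes there are too few to read these shares against each other. All 6 fitted changes were above 0 with a median of 0.06, next to a median of -0.00 for all genes tested, but this sign did not hold for the family: Grin2d and Grin3a were below 0 after quantile normalization, Grin3a was below 0 after upper-quartile scaling, and Grin1, Grin2d and Grin3a were below 0 without TG1. TG1 held the highest value of Grin1, Grin2b, Grin2c, Grin2d and Grin3a, and it is also 1 of the 2 libraries with high choroid plexus genes. TG2, with the higher choroid plexus score (4.54 against 2.95), held the lowest Grin1. It deviated below the mean of the 6 libraries for Grin1, Grin2a, Grin2b, Grin2d and Grin3a, and above it for Grin2c. With the choroid plexus score as a covariate the 6 changes lay between -0.09 for Grin2d and 0.16 for Grin2b, and none passed the threshold. Without TG1 and TG2 together, TG3 alone stood against the WT mice, and its values gave -0.17 for Grin2d at the lowest and 0.11 for Grin2b at the highest, with no spread among TG mice to judge them by.

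**Figure D2:**
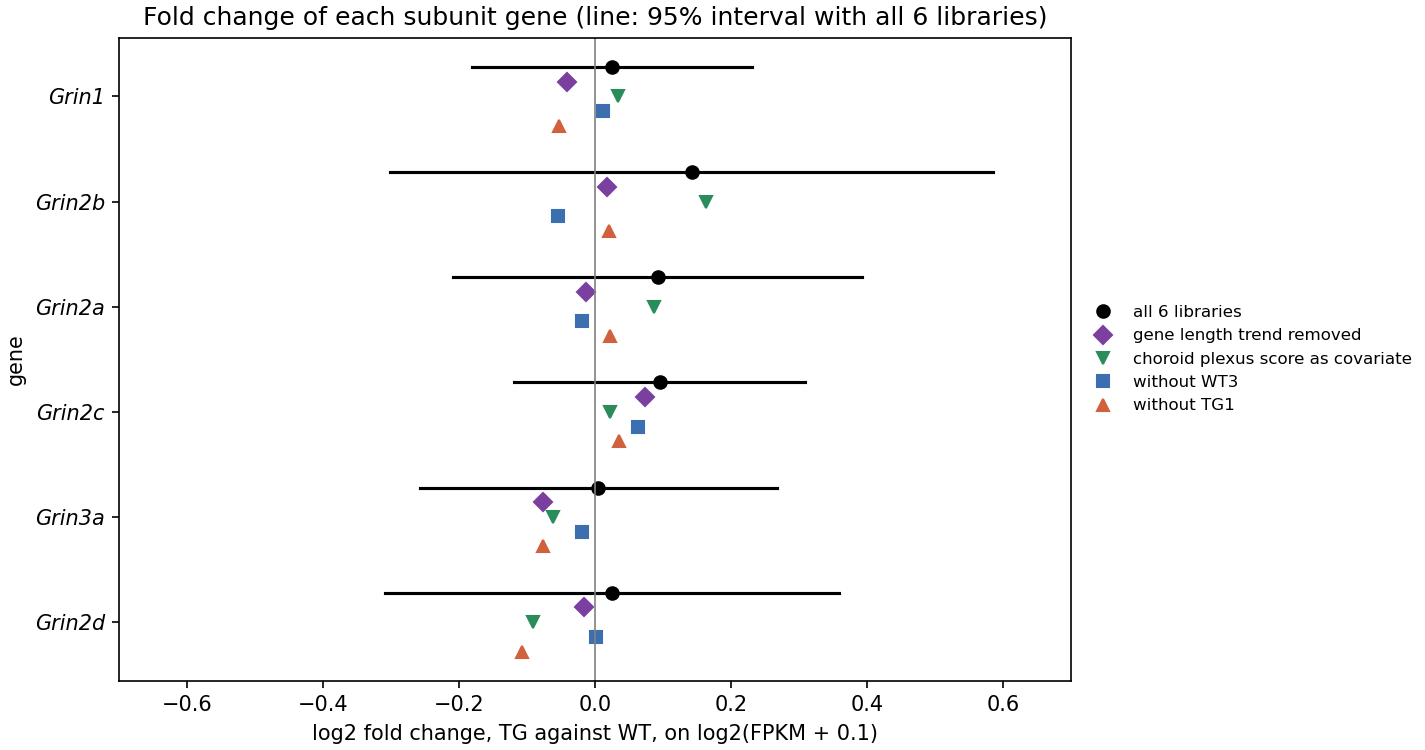
Log2 fold change of TG against WT for each subunit gene on log2(FPKM + 0.1), as fitted with all 6 libraries (black, with the 95% interval) and under 4 other fits. Every interval includes 0, and the estimates of Grin1, Grin2a, Grin2b, Grin2d and Grin3a change sign under at least 1 of the 4 other fits, among them Grin2b at 0.14 with all libraries and -0.06 without WT3.

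The make-up of the GluN2 transcripts was compared as shares of the summed FPKM of the 4 Grin2 genes. Grin2b held 49.8%, 49.6% and 43.2% in the WT libraries against 50.2%, 45.9% and 49.4% in the TG libraries, which gave means of 47.6% ± 3.73 and 48.5% ± 2.28 (SD, n = 3). Grin2a held 27% ± 0.953 in WT mice and 26.6% ± 0.836 in TG mice, the share that varied least relative to its mean. Grin2c followed with 20.2% ± 2.45 and 19.9% ± 1.55, and Grin2d with 5.25% ± 0.914 and 4.90% ± 0.408. For each gene the group means differed by no more than the SD of the WT mice. WT3 stood out in this view as well, with the lowest Grin2b share and the highest Grin2c share, 23%.

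**Figure D3:**
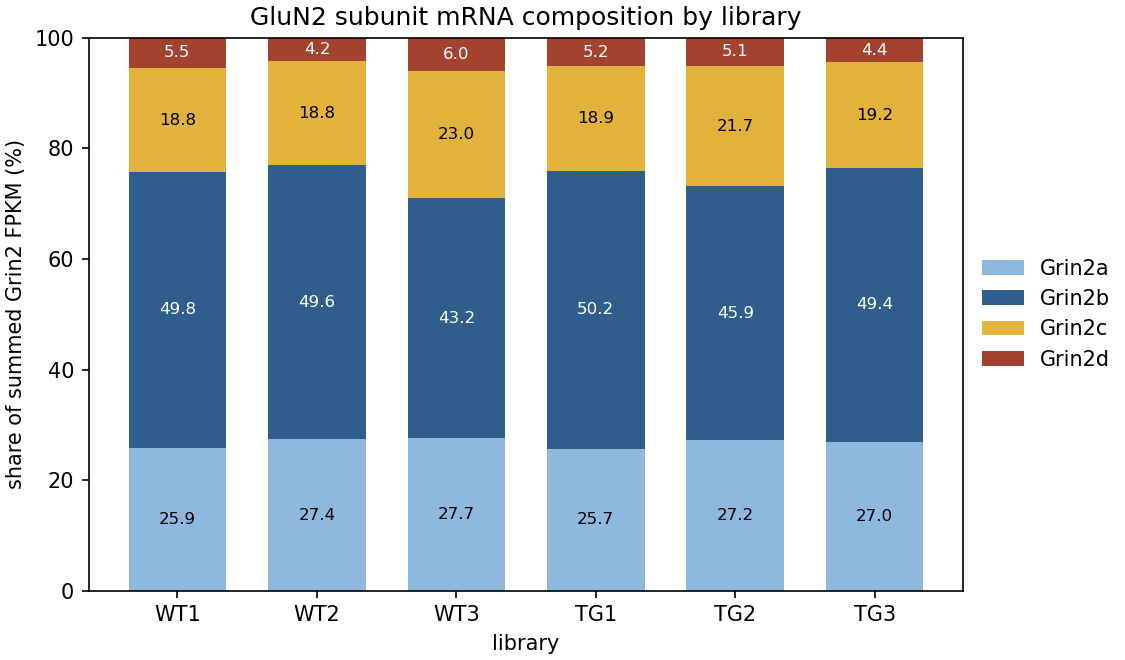
Share of each Grin2 gene in the summed FPKM of the 4 Grin2 genes, in percent, for each library. Grin2b is the largest part in all 6 libraries (43.2% to 50.2%) and Grin2a keeps within 25.7% to 27.7%, with no separation of WT and TG.

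The ratio of Grin2a to Grin2b, a common index of how mature NMDA receptors are, was 0.520, 0.552 and 0.640 in the WT libraries against 0.511, 0.593 and 0.546 in the TG libraries. The group means of 0.571 ± 0.0623 and 0.550 ± 0.0411 differed by -0.0206, less than the SD within either group, and the extreme values were WT3 and TG1. Grin1 over the sum of the Grin2 genes came to 0.719 ± 0.105 (WT) and 0.673 ± 0.0155 (TG), where WT3 with 0.840 accounts for the larger WT spread and the other 5 libraries lay between 0.648 and 0.684. The sum of all 6 genes was 102, 113 and 91.0 in the WT libraries against 121, 98.0 and 103 in the TG libraries. Shares depend on the length each gene is divided by: without that division Grin2b held 62.2% to 67.9% of the Grin2 reads and Grin2c 5.13% to 6.72%, and no share separated the groups on that scale either.

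Among all ionotropic glutamate receptor genes, the NMDA subunits made up 24.1%, 23.8% and 22.4% of the summed FPKM in the WT libraries against 24.9%, 24.0% and 24.7% in the TG libraries. The means were 23.5% ± 0.899 and 24.5% ± 0.492 (SD, n = 3), and TG2 lay below WT1, so the groups overlapped. The 4 AMPA subunit genes, which carry fast excitatory current, held 58.2% ± 1.18 in WT mice and 56.8% ± 0.779 in TG mice. The 5 kainate subunit genes held 18.3% ± 1.03 and 18.6% ± 0.522. Gria1, the most abundant AMPA subunit gene, was at 165, 193 and 163 in the WT libraries against 190.1, 159.7 and 160.0 in the TG libraries, and Grik5, the most abundant kainate subunit gene, 53.5, 56.0 and 56.1 and then 65.9, 53.0 and 50.6. None of these 9 genes passed an unadjusted p of 0.05, the smallest p being 0.521 for Gria4 and 0.149 for Grik1 (limma, adjusted p = 0.872 and 0.789).

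From library to library, Grin2a moved most closely with Grin2b and Grin2d with Grin3a, while Grin1 and Grin2c belonged to neither pair. Relative to its own mean over the 6 libraries, on log2(FPKM + 0.1), Grin2b deviated by -0.47 in WT3 and by 0.32 in TG1, and Grin2a by -0.27 and 0.19. Grin2d deviated by -0.06 and 0.28 in the same libraries, and Grin3a by -0.05 and 0.16. Over the 6 libraries Grin2a and Grin2b had a Pearson correlation of 0.95 and Grin2d and Grin3a one of 0.97, while other pairs ranged from 0.26 for Grin2a and Grin3a to 0.82 for Grin2a and Grin2c. These are descriptions over 6 libraries that share depth, dissection and RNA quality between genes.

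The same 2 libraries stood out for gene length in the whole table. Taking genes whose mean FPKM reached 1, the 1221 genes over 10 kb had a median deviation of -0.18 in WT3 and 0.10 in TG1, and the 2658 genes under 2 kb had one of 0.19 in WT3 and -0.13 in TG1. Medians of both length classes stayed within 0.05 of 0 in the other 4 libraries. Grin2b with 24842 and Grin2a with 17933 exon bases are the longest subunit genes and were lowest in WT3. Length did not order the others: Grin2c, the shortest with 5037 exon bases, was lowest in WT3 as well, with a deviation of -0.11, while Grin3a with 12275 exon bases deviated by only -0.05 there. With the length trend of each library removed, an alternative added after seeing the data, the log2 fold change of Grin2b was 0.02 in place of 0.14 and that of Grin2a -0.01 in place of 0.09. The part of the length trend in their library differences was not tested further.

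**Figure D4:**
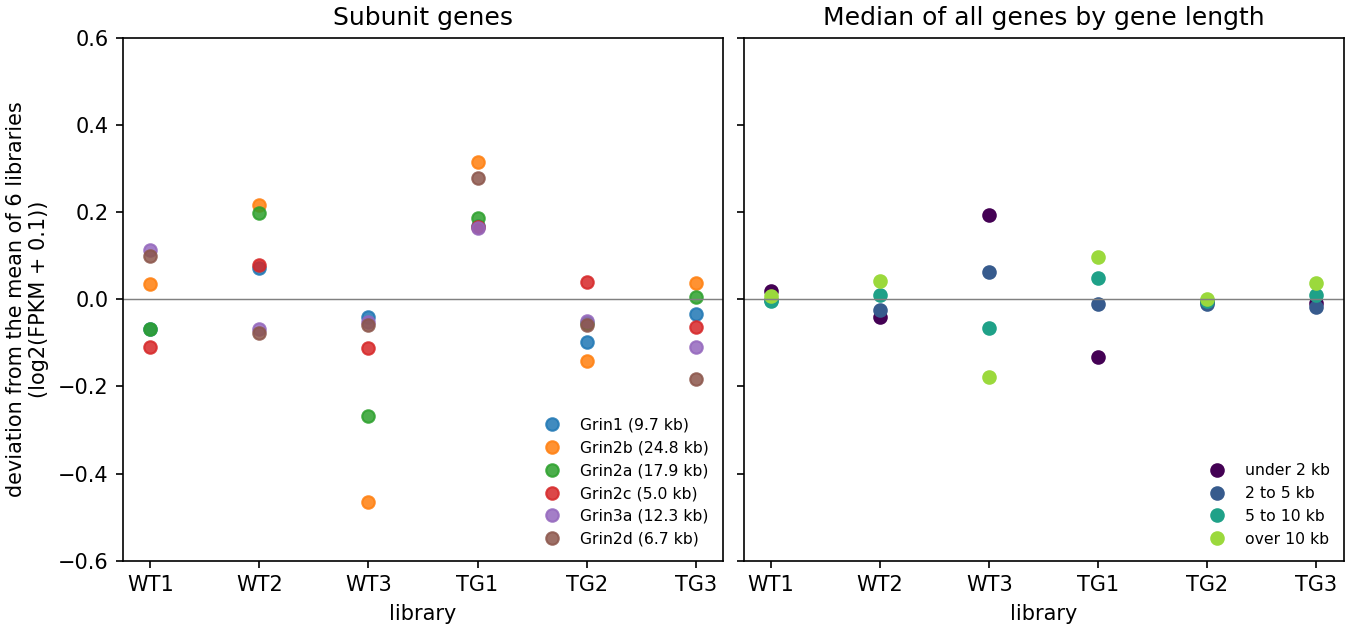
Deviation of each library from the mean of the 6 libraries, on log2(FPKM + 0.1), for the 6 subunit genes with their exon length in kb (left) and as the median over all genes whose mean FPKM reached 1 in 4 classes of exon length (right). In WT3 the longest genes are low (Grin2b -0.47, genes over 10 kb -0.18) and in TG1 they are high (Grin2b 0.32, genes over 10 kb 0.10).

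For each subunit gene the 2 protein-coding genes with the most similar profile over the 6 libraries were looked up among 7381 or 7382 genes whose mean FPKM reached 5. Grin2b was most like Scn2a (r = 0.9971), the gene of a neuronal sodium channel, and Abcg4 (r = 0.9965). The FPKM of Scn2a was 27.9, 30.1 and 23.04 in the WT libraries against 32.0, 26.1 and 28.2 in the TG libraries, so that it too was lowest in WT3 and highest in TG1. Grin2a was most like Mmp17 and Rapgef5 (r = 0.99 for both), and Grin1 like Tmem121b and Enah (r = 0.99 for both). Grin2c was most like March9 (r = 0.99) and Pcdh8 (r = 0.98), Grin2d like Syn2 and Ap2a2 (r = 0.98 for both), and Grin3a like Phactr3 (r = 0.98) and Pak3 (r = 0.97). These r were picked as the highest among all genes compared, over only 6 libraries, and how high r runs for other genes was not computed.

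Genes that act around the receptor were taken in 6 lists: scaffolds and transport, membrane partners, co-agonist supply, kynurenine ligands, kinases and phosphatases, and calcium signalling. Of their 63 genes 57 were tested, 29 had a fitted change above 0 and 28 below 0, and the median was 0.01. At an unadjusted p under 0.05, 0 of 57 were higher and 1 was lower in TG mice, against 3.13% and 2.78% of all genes tested, and 0 of 57 passed the adjusted threshold. The groups were apart for 1 gene that was higher and 4 genes that were lower in TG mice, against 6.35% and 5.71% of all genes.

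Scaffolds hold the receptor at the postsynaptic density, and the Lin7, Cask, Apba1 and Kif17 proteins carry it along dendrites. Of 12 genes, 9 had a fitted change above 0 and 3 below 0 (median 0.05), and 0 passed an unadjusted p of 0.05. Dlg4, which encodes PSD-95, was the most abundant with 57.6, 59.5 and 58.6 in the WT libraries against 66.3, 57.5 and 58.3 in the TG libraries. TG1 was highest there too, and the other 5 libraries lay between 57.5 and 59.5. Apba1 had the smallest p of this list, with 38.4, 35.9 and 32.0 and then 46.4, 36.9 and 42.2, and a log2 fold change of 0.24 (SE 0.107, limma adjusted p = 0.786). Actn2, an actin cross-linker that binds the GluN1 tail, was named after its values were seen because its groups did not overlap: 4.46, 4.4 and 4.46 in WT mice and 4.11, 3.87 and 3.78 in TG mice, or -0.18 as a log2 fold change (SE 0.0836, adjusted p = 0.786).

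The membrane partners were a list of genes that encode membrane proteins, and contact of each protein with the receptor was not tested. Of 5 genes 2 had a fitted change above 0 and 3 below 0. Nlgn1, the postsynaptic adhesion molecule neuroligin that retains NMDA receptors at synapses, had the smallest p of the list, 0.0656, and groups that did not overlap, at 5.87, 5.81 and 5.58 in the WT libraries against 5.35, 4.95 and 5.0 in the TG libraries. Its log2 fold change was -0.17 (SE 0.0787, 95% interval -0.36 to 0.01, limma adjusted p = 0.786), so the groups were apart without passing either threshold. The most abundant, Grina, was at 226, 233 and 242 in WT mice and at 229.7, 228 and 217 in TG mice, which overlapped.

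Co-agonist supply covers the synthesis, cleavage and transport of glycine and D-serine, much of it in astrocytes. Of 15 genes 13 were tested, of which 5 had a fitted change above 0 and 8 below 0 (median -0.07). Psat1, an aminotransferase on the path to serine, was the 1 gene of all lists at an unadjusted p under 0.05 (limma, 0.0465). Its FPKM was 29.2, 28.8 and 31.0 in the WT libraries against 24.9, 26.7 and 27.7 in the TG libraries. All 3 TG values lay below all WT values, with a log2 fold change of -0.17 (SE 0.0696, limma adjusted p = 0.786), which does not pass the adjusted threshold. Psph, the phosphatase of the next step to serine, was also apart at 4.19, 4.08 and 4.97 in WT mice and 3.71, 4.06 and 3.71 in TG mice (-0.20 on the log2 scale, adjusted p = 0.789). Phgdh, the first enzyme of that path and the most abundant of the list, overlapped at 33.7, 32.3 and 42.0 in WT mice and 31.5, 34.5 and 30.5 in TG mice. Gldc, which cleaves glycine, was the 1 gene apart in the other direction, at 11.8, 11.7 and 11.7 and then 12.6, 13.3 and 12.3 (log2 fold change 0.12, adjusted p = 0.789). Psph and Gldc were named after their values were seen. The call for Psat1 was lost with a minimum mean FPKM of 1 and with the choroid plexus score as a covariate, among others, and without WT1 or without TG2 none of the listed genes was lower at this p.

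The kynurenine enzymes make and remove kynurenic acid, which blocks the receptor, and quinolinic acid, which activates it. Only 3 of 7 genes were tested, since Ido1, Kmo, Aadat and Kynu had a mean FPKM under 0.1. Kyat1, an aminotransferase that makes kynurenic acid, was the most abundant at 3.74, 3.85 and 3.93 in the WT libraries against 3.24, 3.80 and 3.73 in the TG libraries, with overlap between TG2 and WT1. Qprt, which removes quinolinic acid, had the smallest p of the 3, 0.320 (limma, adjusted p = 0.795), and rested on 2 to 13 reads in a library.

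Kinases and phosphatases that act on the receptor tails showed 5 of 14 fitted changes above 0 and 9 below 0 (median -0.04). Camk2a, the kinase that docks on GluN2B, was the most abundant, at 521, 559 and 449 in the WT libraries against 608, 519 and 539.7 in the TG libraries. Like Grin2b it was lowest in WT3 and highest in TG1, with overlapping groups (log2 fold change 0.13, SE 0.124, limma adjusted p = 0.802). Src, a tyrosine kinase that raises receptor current, had the smallest p of the list, 0.249. Of the 10 genes that read the calcium entry, 7 had a fitted change above 0 and 3 below 0 (median 0.06). Calm2, which encodes calmodulin, was at 993, 955 and 1263 in the WT libraries against 803, 936 and 979 in the TG libraries, highest in WT3 and lowest in TG1, the reverse of Grin2b. Rasgrf2, a calcium-activated exchange factor for Ras, had the smallest p of these 10, 0.143 (limma, adjusted p = 0.789).

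**Figure D5:**
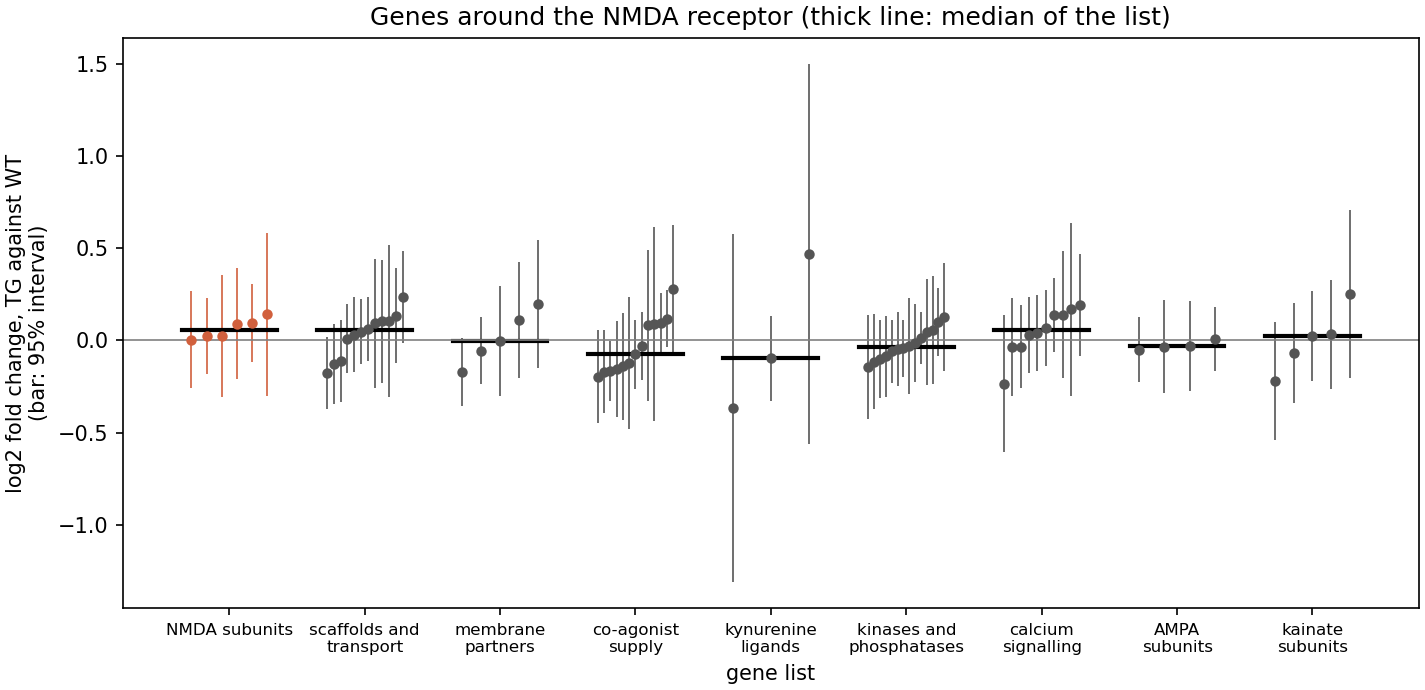
Log2 fold change of TG against WT on log2(FPKM + 0.1), with 95% intervals, for each tested gene in the subunit family and the 8 lists around it, with a thick line at each median. The medians of the 9 lists lie between -0.10 and 0.06, and the intervals of all genes but Psat1 include 0.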

How the data were processed

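Hippocampal RNA of 3 WT and 3 TG mice was sequenced, and no sample was left out. The study's methods name Trizol and a NEBNext kit, the labels an RNeasy and a SMARTer kit. The authors counted reads per gene with HTSeq and deposited FPKM, 1 column per library. The submitters' processing notes name GRCm38 and mm10. The aligner, the strand setting and the rule for reads that match several genes are not given in the sources used here, so overlapping, antisense and near-identical genes are uncertain. Reads per gene were recovered from FPKM and gene length, with whole numbers for 100% of values (tolerance 0.05 reads). Intervals and floors from reads cover counting error only.

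The groups were compared with limma 3.58.1 in R 4.3.3 (lmFit, eBayes with a trend) on log2(FPKM + 0.1) over the 20952 genes whose mean FPKM reached 0.1, with no covariate. P-values were adjusted over these genes by Benjamini-Hochberg (threshold 0.05). Fold changes on this scale understate those of low genes. limma-voom ran on the recovered reads as an alternative, and the test was checked on simulated data. Other alternatives varied the pseudocount, filter, scaling, variance model, choroid plexus score, replicate block and libraries, and a removal of the gene length trend was added after seeing the data. Sequences were read from GENCODE release M21, whose exon lengths match the deposited ones. Python 3.11.15, numpy 2.4.6, biopython 1.88 and matplotlib 3.10.9 were used.

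The genes and lists were chosen with earlier results of these data known. Named were all 6 subunit genes, the most abundant gene and the one of smallest p in each list, and per subunit gene the 2 genes most like it. Columns of per-sample values that were not used numbered 0. A comparison of one coding stretch between the subunit genes is not reported here.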

Additional observations from a re-analysis of the deposited data

How the results depend on the processing

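None of the 6 subunit genes passed an unadjusted or adjusted p of 0.05 in limma under any of the alternatives that keep at least 2 libraries a group, where the smallest unadjusted p was 0.0996 for Grin2a and the smallest adjusted p 0.636 for Grin2a and Grin2c. The sign of small estimates did turn. Without TG1 and TG2 together, which leaves TG3 as the 1 TG library and assumes that it varies like the WT mice, the log2 fold change was -0.023 for Grin1, -0.017 for Grin2c, -0.17 for Grin2d and -0.11 for Grin3a. With the gene length trend removed, added after seeing the data, it was -0.041 for Grin1, -0.013 for Grin2a, -0.017 for Grin2d and -0.077 for Grin3a. With the choroid plexus score as a covariate it was -0.092 for Grin2d and -0.062 for Grin3a, with quantile normalization -0.0030 and -0.027, and with upper-quartile scaling -0.0021 for Grin3a. Leaving out each library in turn gave -0.054 to 0.079 for Grin1, -0.020 to 0.21 for Grin2a, -0.055 to 0.29 for Grin2b, 0.035 to 0.16 for Grin2c, -0.11 to 0.12 for Grin2d and -0.077 to 0.062 for Grin3a. The difference in the ratio of Grin2a to Grin2b ran from -0.0461 to 0.0141 in the same fits, and was -0.0149 on reads. The cause of these turns was not tested.

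Over all genes, 1 was higher and 1 lower at an adjusted p under 0.05. These counts were 0 and 0 with a pseudocount of 1 or 0.01, without a filter, with limma-voom, with the choroid plexus score, without TG1 and TG2 together and with the length trend removed. With a minimum mean FPKM of 1, 0 were higher, and without the variance trend 6 were higher and 3 lower. Leaving out 1 library gave 0 to 6 higher, the 6 without TG1, and 0 lower. At an unadjusted p under 0.05 the choroid plexus score gave 337 higher and 372 lower genes, in place of 656 and 582. Leaving out 1 library gave 449 to 747 higher and 406 to 717 lower. Among the genes around the receptor, 0 higher and 1 lower at an unadjusted p under 0.05 became 1 and 0 with quantile normalization and with limma-voom. The lower count was 0 with a minimum mean FPKM of 1, without the variance trend, with the choroid plexus score and without TG1 and TG2 together, and 2 with the length trend removed. Leaving out 1 library gave 0 to 1 higher and 0 to 2 lower.

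The labels number the mice and state no pairing. Same-numbered WT and TG libraries deviated together with r = 0.0125, 0.0434 and 0.0031 over the genes tested, other pairs with -0.0274 to 0.0159. Such values cannot show whether same-numbered mice share a litter. With a replicate block 0 genes were higher and 0 lower at an adjusted p under 0.05, and among the genes around the receptor 1 was higher and 0 lower at an unadjusted p. The block changed no call for a subunit gene. With 3 mice a group, the interval of Grin2b was set by the spread between mice, and 2 to 13 reads limit Qprt.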
